A study of Mus musculus with 6 samples.

Results

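Cholesterol metabolism in the liver was followed through 31 genes that make cholesterol, sense it, take it up, move it inside the cell or attach a fatty acid to it. The members were chosen by symbol, by their known step in the pathway, and all 31 were found among the 50600 genes of the tables and passed the filter on low counts. They comprised 18 synthesis enzymes, 4 sterol sensors, 3 genes of uptake, 3 of transport inside the cell and 3 of esterification. Their levels were compared between 2 groups of C57BL/6 mouse livers, both 1 month old. The Dicer LKO group (n = 3) had the genotype Dicerloxp/loxp;Alb-cre. In it the albumin promoter drives Cre recombinase in hepatocytes, so that Dicer is meant to be deleted in those cells. Which liver cells lost Dicer, and how completely, was not measured here. The control group (n = 3) had the genotype Dicerloxp/loxp without Cre, although the series text calls it wild type, so all 6 libraries came from mice with loxP-flanked Dicer. Dicer cuts hairpin precursors into mature miRNAs, and the comparison asked how liver messenger RNA differs when hepatocytes are meant to lack it. RNA came from whole frozen liver, and nothing in the labels beyond the sample names says that the samples were separate animals, so the p-values reflect how these samples spread, part of which may be technical. In whole tissue, fewer cells of a type and less RNA per cell cannot be told apart.

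Cholesterol is built from acetyl-CoA by way of mevalonate, isoprenoid units, squalene and lanosterol. The cell adjusts this route by a feedback loop: when sterols in the endoplasmic reticulum are plentiful, the SCAP and INSIG proteins hold the membrane-bound transcription factor SREBP-2 there, and when sterols run low SCAP escorts it to the Golgi, where it is cut and released to switch on genes of synthesis and uptake. The liver also takes cholesterol from lipoproteins, stores it as esters and returns it to blood and bile. Several liver miRNAs are known to act on this system, and miR-33 lies in an intron of Srebf2, the gene for SREBP-2.

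The libraries held 14141973 to 25049749 expected counts, with control replicate 3 the shallowest. Mitochondrial genes held 10.2% of the counts in control replicate 3, against 4.62% to 6.46% in the other libraries. Levels are given as CPM, counts scaled to a common library size with a TMM factor. Dicer1 was at 28.2 ± 3.46 CPM (SD, n = 3) in Dicer LKO and 56.0 ± 13.4 CPM (n = 3) in control livers, with every Dicer LKO library below every control, and edgeR's quasi-likelihood test gave a log2 fold change of −0.99 (SE 0.20, adjusted p = 0.0622). The summed level of 10 hepatocyte markers lay between 89623 and 92350 CPM in Dicer LKO livers and was 90956, 63343 and 50194 CPM in control replicates 1, 2 and 3. Alb alone was at 52052.5, 24333.1 and 26351.9 CPM in those controls. Markers of several other kinds of cell summed higher in Dicer LKO livers, without overlap except for macrophages and B cells. Summed CPM in the Dicer LKO and control libraries lay between 595 and 769 against 292 and 636 for 12 macrophage markers, 586 and 642 against 418 and 479 for 10 stellate cell markers, and 481 and 615 against 352 and 446 for 9 endothelial markers. For 7 bile duct markers the sums were between 141 and 267 against 32.0 and 46.6 CPM, and for 7 erythroid markers between 879 and 1634 against 228 and 307 CPM. Spp1 alone made up most of the bile duct sum in every library. Of the 6 tested bile duct markers, 5 (Spp1 among them) were higher without overlap, while Sox9 (67.9% of control) had a lower mean in Dicer LKO. Most of the erythroid sum came from 3 globin genes, while Alas2 (67.0% of control) and Klf1 (68.4%) had lower means in Dicer LKO. Neutrophil markers summed to between 33.4 and 77.8 against 1.66 and 22.4 CPM, and B cell markers to between 14.6 and 45.3 against 9.18 and 23.3 CPM. Markers of heart muscle summed to 1.61, 0.762 and 10.7 CPM in Dicer LKO replicates 1, 2 and 3 and to between 12.3 and 39.8 CPM in the controls. The 5 adrenal cortex markers summed to between 1.01 and 2.36 CPM in all 6 libraries, with Cyp11b1 at 0.

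The promoter letters that SREBP-2 and its partners are known to use were looked for in 24 members, those with an entry in the RefSeq promoter table (GRCm38.p6, 250 bases before to 50 after the start). In these windows 3 short motifs were searched on both strands and counted separately even where they touched (a gene with several windows counted if any held the motif): the sterol regulatory element TCACNCCAC, the NF-Y box CCAAT, and the Sp1 box GGGCGG. The NF-Y box was present in 21 of 24 members (87.5%), against 43.0% of the 10145 tested genes with an entry. The Sp1 box was present in 22 of 24 (91.7%) against 66.2%. The sterol element was found in 1 of 24, Hmgcs1, against 1.45% of tested genes. Only these exact letters were counted, and other forms of the element were not searched. The 3 members without CCAAT were Acat2, Scap and Lrp1. A match describes the letters of these windows only. The windows of 4 members are shown because they carry the contrast described below, Hmgcs1 and Idi1 having varied widely within both groups and Insig1 and Lss having been below all controls in every Dicer LKO library. Capitals mark TCACNCCAC and CCAAT on either strand, so that CCAAT on the minus strand reads ATTGG.
Hmgcs1 (chr13:119690101-119690400, plus strand): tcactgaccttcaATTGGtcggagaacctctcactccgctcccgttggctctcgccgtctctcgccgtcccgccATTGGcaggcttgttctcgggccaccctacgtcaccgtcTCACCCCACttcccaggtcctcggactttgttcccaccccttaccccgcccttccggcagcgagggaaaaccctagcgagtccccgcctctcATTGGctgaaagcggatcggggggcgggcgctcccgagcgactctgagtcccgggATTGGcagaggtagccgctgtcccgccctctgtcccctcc
Idi1 (chr13:8885356-8885655, plus strand): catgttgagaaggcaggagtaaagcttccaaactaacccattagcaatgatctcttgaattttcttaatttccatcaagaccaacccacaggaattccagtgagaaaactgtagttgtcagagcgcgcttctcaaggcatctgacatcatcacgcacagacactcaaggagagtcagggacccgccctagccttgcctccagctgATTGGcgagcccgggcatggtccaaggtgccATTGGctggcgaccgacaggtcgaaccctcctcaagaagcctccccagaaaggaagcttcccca
Insig1 (chr5:28071162-28071461, plus strand): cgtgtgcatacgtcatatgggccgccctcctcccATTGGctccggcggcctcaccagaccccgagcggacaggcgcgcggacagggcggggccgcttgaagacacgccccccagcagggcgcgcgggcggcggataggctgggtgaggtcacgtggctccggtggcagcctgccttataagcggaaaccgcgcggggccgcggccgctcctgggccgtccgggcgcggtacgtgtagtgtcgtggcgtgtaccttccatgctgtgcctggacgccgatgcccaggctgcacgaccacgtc
Lss (chr10:76531355-76531654, plus strand): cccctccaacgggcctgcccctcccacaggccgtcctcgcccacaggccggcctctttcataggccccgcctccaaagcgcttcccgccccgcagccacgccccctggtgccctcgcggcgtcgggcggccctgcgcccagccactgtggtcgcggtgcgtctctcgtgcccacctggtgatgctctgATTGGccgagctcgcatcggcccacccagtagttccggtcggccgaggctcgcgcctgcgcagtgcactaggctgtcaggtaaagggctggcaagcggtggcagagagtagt
Hmgcs1 held its TCACCCCAC at −137 and 4 NF-Y boxes at −237, −176, −45 and 11, counted from the start. Idi1 held NF-Y boxes at −45 and −14, Insig1 at −216 and Lss at −62. Because these 4 members were picked by their levels, their numbers of boxes cannot be read as part of the contrast. Box number was not tested against the levels.

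The seeds of 6 miRNA families were searched for because Dicer makes their mature forms and they are known in liver, in sterol genes or in white blood cells. Their mature sequences, from RefSeq with the seed (bases 2 to 8) in capitals, were as follows.
mmu-let-7a-5p: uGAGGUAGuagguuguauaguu
mmu-miR-30a-5p: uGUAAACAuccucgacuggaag
mmu-miR-27b-3p: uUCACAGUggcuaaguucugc
mmu-miR-148a-3p: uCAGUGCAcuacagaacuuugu
mmu-miR-33-5p: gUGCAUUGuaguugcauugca
mmu-miR-223-3p: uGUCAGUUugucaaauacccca
The let-7 seed was shared by 11 mature miRNAs, the miR-30 seed by 4, the miR-148 seed by 3 and the miR-27 seed by 2, and the seeds of miR-33 and miR-223 by none other in the table. In the longest annotated 3′ untranslated region of each gene (GENCODE M21, GRCm38), a 7-base match to the let-7 seed was present in 4 of 31 members (12.9%) against 10.5% of 12439 tested genes. The shares were 9.68% against 16.1% for miR-30, 9.68% against 17.3% for miR-27, 12.9% against 15.4% for miR-148, 6.45% against 7.66% for miR-33 and 12.9% against 9.53% for miR-223. Each family thus had matches in 2 to 4 members. The sites below lie in members whose groups did not overlap, and in those with a miR-33 match, with the match in capitals and the coordinates of those 7 bases in GRCm38.
Lss, miR-148 (chr10:76554503-76554509, plus strand): tctgtagtgctttcTGCACTGgta
Insig1, miR-148 (chr5:28077466-28077472, plus strand): caaagtcagggttcTGCACTGcga
Insig1, miR-223 (chr5:28078044-28078050, plus strand): tttaagttatatgaAACTGACctc
Npc2, let-7 (chr12:84755614-84755620, minus strand): tgagcctcctgcttCTACCTCaag
Npc2, miR-27 (chr12:84756760-84756766, minus strand): agggctatggatccACTGTGAagg
Soat1, let-7 (chr1:156426387-156426393, minus strand): ctgagtctggattgCTACCTCtta
Soat1, miR-30 (chr1:156426992-156426998, minus strand): ccttaataaatgttTGTTTACttg
Nsdhl, miR-33 (chrX:72958174-72958180, plus strand): gctcagtgatggtgCAATGCAatg
Soat2, miR-33 (chr15:102163252-102163258, plus strand): ctttctgcttctccCAATGCAaca

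Per transcript length, the members covered a wide range in these livers. By the deposited TPM, a level corrected for length, the highest means over the 6 libraries were those of Lcat (156 TPM), the plasma enzyme that esterifies cholesterol on lipoproteins, and Lrp1 (150 TPM), an endocytic receptor for remnant particles. Among the synthesis enzymes, Sc5d (99.7 TPM), the desaturase late in the route, and Hmgcs1 (79.8 TPM), which makes HMG-CoA, were highest. The lowest was Soat1 (1.96 TPM), an esterifying enzyme of most tissues, below Soat2 (8.55 TPM), its counterpart of liver and intestine. Srebf2 stood at 4.75 TPM, while the genes of its retaining proteins, Insig1 and Insig2, stood at 77.6 and 68.0 TPM. In counts, the members ran from 82 (Mvd in Dicer LKO replicate 3) to 64206 (Lrp1 in control replicate 2) per library.

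**Figure D1:**
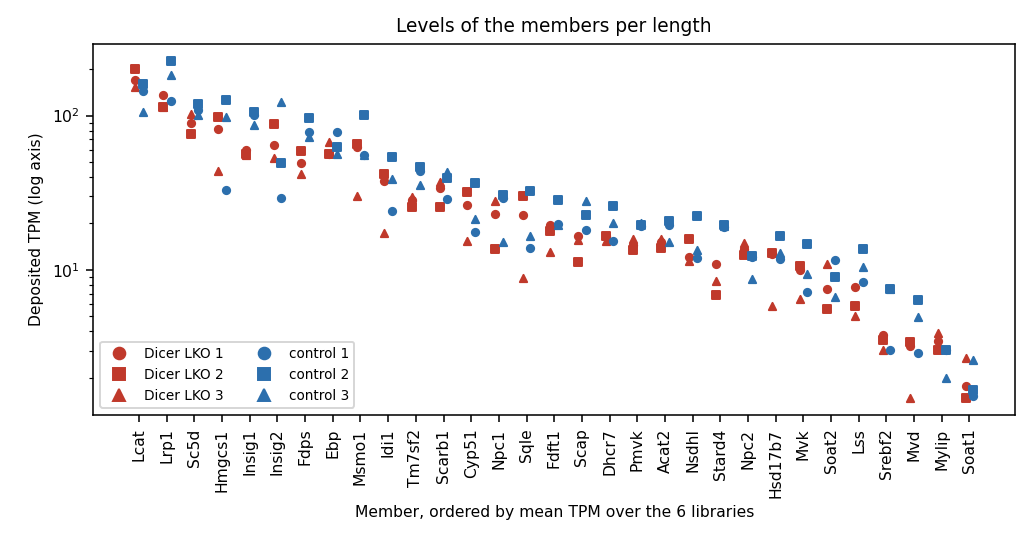
Deposited TPM of each member (log axis) in the 6 libraries, ordered by the mean over all 6 (red, Dicer LKO; blue, control; the shape gives the replicate). Levels run from means of 1.96 TPM for Soat1 to 156 TPM for Lcat, and for most members red and blue points intermix.

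Across the 31 members, 1 passed the test (edgeR adjusted p under 0.05), Stard4, which was lower in Dicer LKO. Over all 14314 tested genes 1.29% were called, and 0.552% were called lower and 0.741% higher. At an unadjusted p under 0.05, 6 members were lower (19.4%, against 12.1% of all genes) and 2 were higher (6.45%, against 8.88%). The 3 Dicer LKO libraries lay entirely below the 3 controls for 6 members (19.4%, background 15.4%) and entirely above them for 3 (9.68%, background 12.7%). Together these 9 members made up 29.0% of the list, where 28.0% of all tested genes separated without overlap, so the share was near the background. Negative fold changes were seen for 23 of 31 members (74.2%, against 51.4% of all genes), with a median log2 fold change of −0.19 against −0.01 over all genes. That count rests largely on control replicate 2, since without it 16 members were lower and 15 higher, with a median of −0.04. The median was −0.39 without control replicate 1 and −0.30 without Dicer LKO replicate 2, and it was −0.30 with plain library totals. The 95% interval lay within a log2 change of 1 in either direction for 16 of 31 members (51.6%), against 61.8% of all genes, so for the other 15 a change of 2-fold was not outside the interval.

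**Figure D2:**
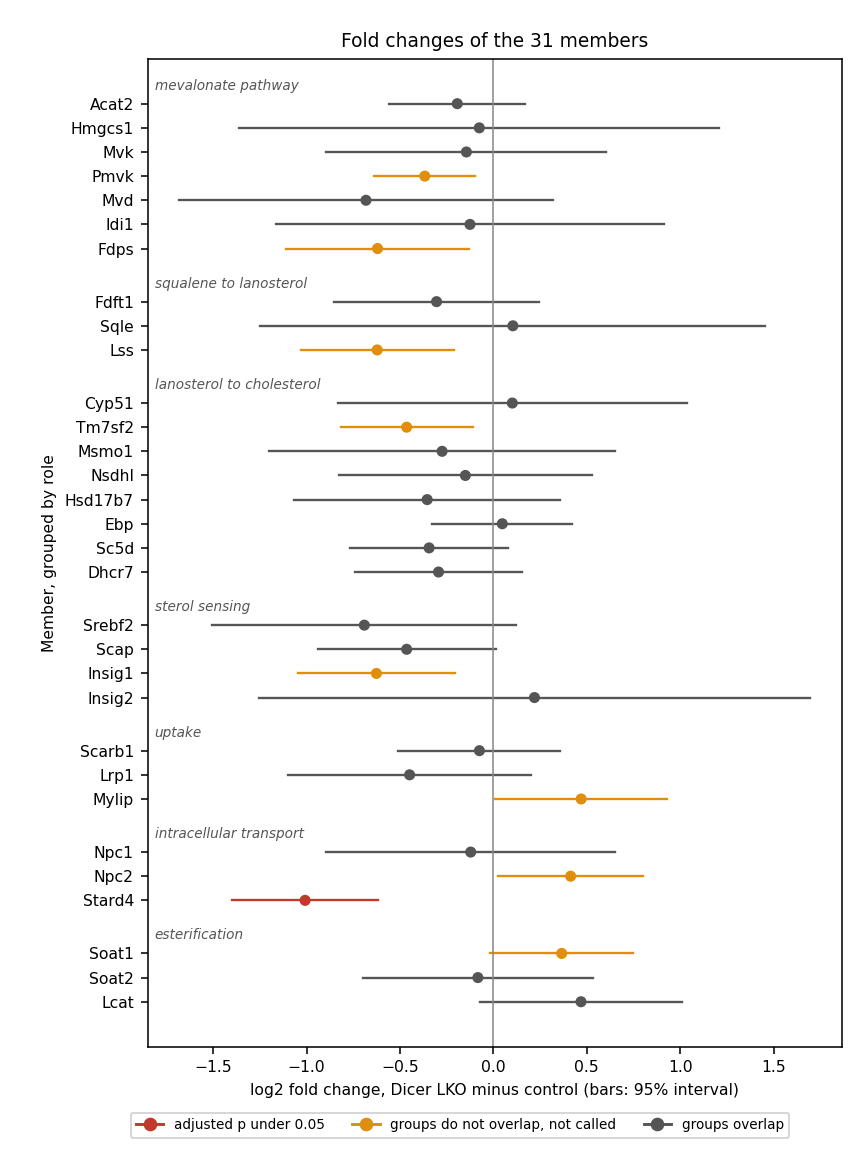
Log2 fold change of each member, Dicer LKO minus control, from edgeR with its 95% interval, grouped by role. Stard4 (red) was the called member at −1.01, 5 lower and 3 higher members separated without overlap but were not called (orange), and the widest intervals belong to Insig2, Sqle and Hmgcs1.

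The enzymes of the mevalonate segment, which turn acetyl-CoA into farnesyl pyrophosphate, all had negative fold changes (7 of 7), and none passed the test. The median was −0.19, but leaving out control replicate 2 turned Hmgcs1 to 0.37, Mvk to 0.26 and Idi1 to 0.25. Only Fdps and Pmvk separated the groups. Fdps, which condenses isoprenoid units into farnesyl pyrophosphate, was at 77.8, 101 and 63.7 CPM in Dicer LKO replicates 1, 2 and 3 and at 116, 151 and 105 CPM in controls 1, 2 and 3. The highest Dicer LKO library thus lay just below the lowest control, and the means of 80.7 ± 18.6 and 124 ± 24.1 CPM gave a log2 fold change of −0.62 (SE 0.21, edgeR adjusted p = 0.158). Fdps shares 26.7% of its exon bases with Gm43738 on the same strand, so its reads could be divided between them. Pmvk, the kinase that adds the second phosphate to mevalonate, was at 20.9, 19.8 and 21.6 CPM against 26.0, 27.7 and 26.7 CPM. Its libraries were tight within each group and apart between groups, with 20.7 ± 0.915 against 26.8 ± 0.856 CPM and a log2 fold change of −0.37 (SE 0.12, edgeR adjusted p = 0.141).

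Hmgcs1, the most abundant transcript of the segment, behaved otherwise. It was at 364, 470 and 188 CPM in Dicer LKO livers and 137, 546 and 393 CPM in the controls. The lowest and the highest library were both controls, 3.98-fold apart, and the Dicer LKO libraries all fell between them. The means of 341 ± 142 and 359 ± 207 CPM differed by a log2 of −0.08 with a 95% interval of −1.36 to 1.21, so neither a fall nor a rise of 2-fold could be told from no change. Idi1, which interconverts the isoprenoid units, had the same order of libraries within the controls, at 156, 186 and 68.8 CPM against 91.5, 215 and 141 CPM. Mvd, the decarboxylase that makes the first of those units, was at 7.43, 8.48 and 3.27 CPM against 6.13, 14.3 and 10.3 CPM, a log2 fold change of −0.68 (SE 0.42, edgeR adjusted p = 0.407). Mvk (mevalonate kinase, 12.3 to 28.4 CPM over the 6 libraries) and Acat2 (41.0 to 59.9 CPM), the thiolase that starts the route and not an esterifying enzyme, overlapped between groups as well. Acat2 has a neighbouring copy, Acat3, at mean levels of 165 CPM in Dicer LKO and 211 CPM in controls, and reads could be shared between them.

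**Figure D3:**
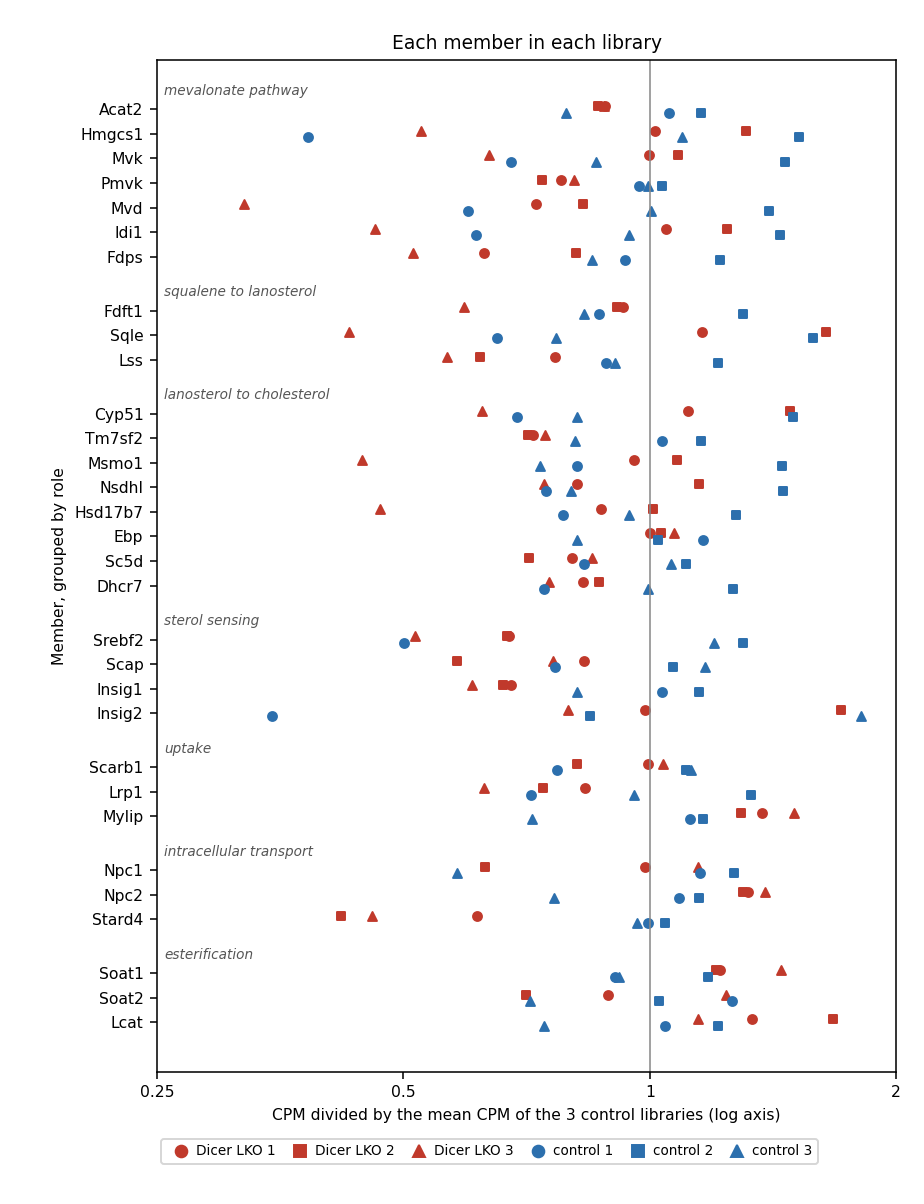
CPM of each member divided by its control mean (log axis), with Dicer LKO libraries in red and controls in blue. Control replicate 2 (blue squares) was the highest library for 21 of the 31 members, and Dicer LKO replicate 3 (red triangles) the lowest for 13.

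Between farnesyl pyrophosphate and lanosterol, Lss was lower in every Dicer LKO library, while Sqle and Fdft1 overlapped between the groups. Lss, which folds squalene epoxide into lanosterol, was at 44.2, 35.7 and 32.6 CPM in Dicer LKO and 50.9, 69.9 and 52.3 CPM in controls. On average Dicer LKO livers held 65.0% of the control level, 37.5 ± 5.97 against 57.7 ± 10.6 CPM, with a log2 fold change of −0.62 (SE 0.18, edgeR adjusted p = 0.113), the lowest adjusted p among the 18 synthesis enzymes. Sqle, the oxidase that makes the epoxide, was at 86.4, 123 and 32.1 CPM against 48.6, 118 and 57.3 CPM. Both its highest and its lowest library were Dicer LKO, 3.82-fold apart. Its log2 fold change of 0.10 had an interval of −1.25 to 1.46 and turned to −0.04 with library totals. Fdft1, squalene synthase, was at 67.3 ± 15.6 against 83.1 ± 21.7 CPM, a log2 fold change of −0.30 (SE 0.24). It shares 18.3% of its exon bases with Ctsb on the other strand, and strandedness of the counting was not given.

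The 8 enzymes from lanosterol to cholesterol had a median log2 fold change of −0.28, with 6 negative and 2 positive values and none called. Tm7sf2, a sterol reductase that acts after the demethylase Cyp51, was the member of this segment whose groups did not overlap. It was at 48.6, 47.9 and 50.3 CPM in Dicer LKO and 69.9, 77.9 and 54.6 CPM in controls, so the gap to the lowest control was small. The means were 48.9 ± 1.22 and 67.5 ± 11.9 CPM (log2 fold change −0.46, SE 0.15, edgeR adjusted p = 0.148). Tm7sf2 shares 12.1% of its exon bases with Vps51 on the same strand, which was at 13.1 and 14.2 CPM. Sc5d, the segment's most abundant transcript, was at 286, 254 and 303 CPM against 297, 395 and 378 CPM, overlapping at 1 control library. The demethylase Cyp51 was at 135 ± 54.0 against 126 ± 54.7 CPM, and its log2 fold change of 0.10 turned to −0.03 with library totals. Msmo1, which removes the sterol's methyl groups together with Nsdhl and Hsd17b7, ran from 66.3 CPM in Dicer LKO replicate 3 to 217 CPM in control replicate 2. The log2 fold changes of Msmo1, Nsdhl and Hsd17b7 were −0.27, −0.15 and −0.35, with standard errors of 0.39, 0.29 and 0.30. The isomerase Ebp was the steadiest, at 122 ± 4.16 against 118 ± 20.7 CPM, a log2 fold change of 0.05 with an interval of −0.33 to 0.42 (−0.06 with library totals). Dhcr7, the reductase of the last double bond on one branch of the route, was at 48.9 ± 3.50 against 59.9 ± 15.6 CPM (−0.29, SE 0.19).

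Summed over the 18 synthesis enzymes, the level was 1785, 2033 and 1254 CPM in Dicer LKO replicates 1, 2 and 3 and 1463, 2572 and 1818 CPM in controls 1, 2 and 3. The groups overlapped, with means of 1691 ± 398 and 1951 ± 566 CPM, or 86.6% of control, and 79.1% by TPM. Without control replicate 2 the sum was 103% of control, and without control replicate 1 it was 77.0%. Control replicate 2 was the highest library for 16 of the 18 enzymes and Dicer LKO replicate 3 the lowest for 11. A range of at least 2-fold between the highest and the lowest library was seen for 11 of the 18 enzymes and 19 of all 31 members. It exceeded 3-fold for Insig2, Mvd, Hmgcs1, Sqle, Msmo1 and Idi1. Hepatocyte marker sums had another order among the controls. Control replicate 2, highest for the synthesis enzymes, had 63343 CPM of hepatocyte markers and control replicate 1 had 90956 CPM. That gap was mostly Alb, at 24333.1 CPM in control replicate 2 and 52052.5 CPM in control replicate 1. The other hepatocyte markers differed in both directions. The part of hepatocyte content in the synthesis pattern was not tested. Feeding state and time of collection are not given in the labels.

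**Figure D4:**
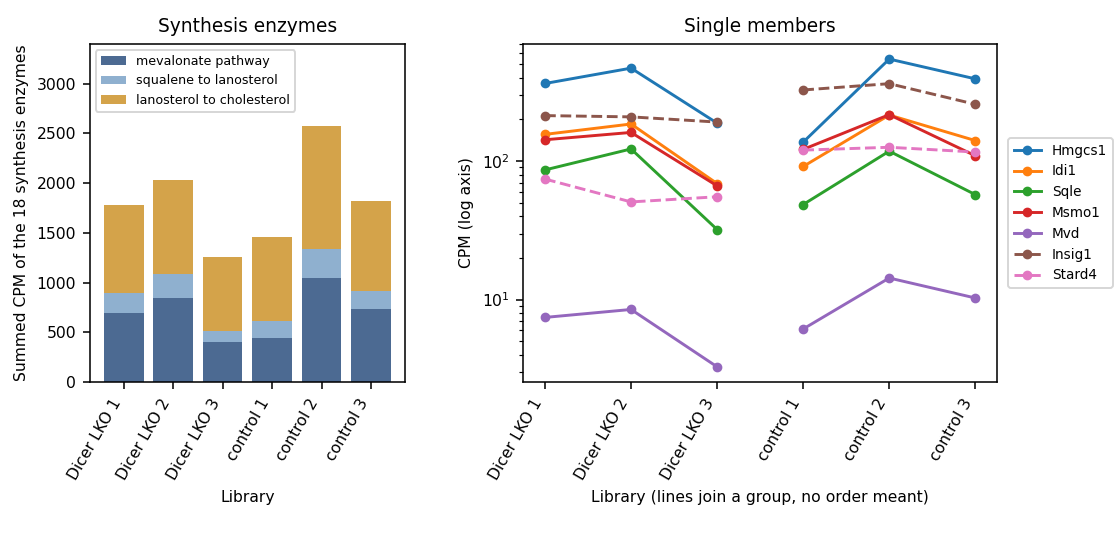
Left, summed CPM of the 18 synthesis enzymes by library, stacked by segment; right, CPM of 7 members by library (log axis, lines join the libraries of a group). The sum runs from 1254 CPM in Dicer LKO replicate 3 to 2572 CPM in control replicate 2, and Insig1 and Stard4 (dashed) lie lower in all Dicer LKO libraries while Hmgcs1, Idi1 and Sqle vary within each group.

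Of the 4 sterol sensors, 3 had negative fold changes and none passed edgeR's test. Insig1, which holds SCAP in the endoplasmic reticulum and is itself a known SREBP-2 target, was at 213, 209 and 192 CPM in Dicer LKO and at 327, 363 and 258 CPM in controls. All Dicer LKO libraries lay close together and below the lowest control. The means were 205 ± 11.5 and 316 ± 53.5 CPM, or 64.8% of control, with a log2 fold change of −0.63 (SE 0.18, 95% interval −1.04 to −0.21, edgeR adjusted p = 0.117). DESeq2's Wald test (adjusted p = 0.0162) and voom with sample weights (adjusted p = 0.0465) called it lower. Those fits called 1117 of 23552 and 717 of 14314 genes, against 185 of 14314 with edgeR. Insig1 (chr5:28071363-28078662, plus strand) carried the miR-148 and miR-223 matches shown above.

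Insig2, which shares the role of Insig1, spread most of all members. It was at 149, 258 and 120 CPM in Dicer LKO and 52.2, 128 and 273 CPM in controls, 5.23-fold between control replicates 1 and 3. Its log2 fold change of 0.22 had an interval of −1.26 to 1.70, from −0.19 without control replicate 1 to 0.98 without control replicate 3. Srebf2 was at 26.8, 26.7 and 20.6 CPM against 20.0, 51.9 and 47.8 CPM. Control replicate 1 stood with the Dicer LKO libraries, and the log2 fold change was −0.69 (SE 0.34, edgeR adjusted p = 0.304). Without control replicate 1 it was −1.01, with an adjusted p of 0.0361. Scap, the escort protein, was at 84.3 ± 15.0 against 116 ± 24.4 CPM (−0.46, SE 0.21, edgeR adjusted p = 0.247). The Mir33 row was at 0 counts in all 6 libraries, which allows up to 3 counts per library; these tables do not measure mature miRNAs. RefSeq places miR-33-5p at chr15:82198127-82198147, plus strand, inside Srebf2 (chr15:82147181-82205379, plus strand) and outside its exons.

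In the uptake group, Mylip was higher in every Dicer LKO library, and Scarb1 and Lrp1 overlapped between groups. Mylip encodes a ubiquitin ligase that marks lipoprotein receptors for breakdown and is known as an LXR target. It was at 14.6, 13.8 and 16.0 CPM in Dicer LKO against 11.9, 12.4 and 7.65 CPM in controls, with means of 14.8 ± 1.13 and 10.7 ± 2.62 CPM. Its log2 fold change was 0.47 (SE 0.20, edgeR adjusted p = 0.230), and the groups were separated by less than 2 CPM. The log2 fold change ran from 0.31 without control replicate 3, the shallowest library, to 0.62 without control replicate 2. By TPM the groups overlapped, at 3.46, 3.03 and 3.93 against 3.05, 3.03 and 2.01. Lrp1 was at 1932, 1716 and 1456 CPM against 1660, 3084 and 2221 CPM, a log2 fold change of −0.45 (SE 0.28, edgeR adjusted p = 0.407) with control replicate 1 inside the Dicer LKO range. Scarb1, the receptor that takes cholesterol esters from HDL, was at 107 ± 13.4 against 113 ± 22.5 CPM. Its interval of −0.51 to 0.36 did not include a 2-fold change in either direction.

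The single called member was a carrier inside the cell. Stard4 encodes a soluble protein that moves cholesterol between membranes and is known as a target of SREBP-2. It was at 74.3, 50.7 and 55.3 CPM in Dicer LKO and at 120, 126 and 116 CPM in controls. The controls lay within 10 CPM of each other, and the highest Dicer LKO library was well below them. The means of 60.1 ± 12.5 and 121 ± 4.84 CPM put Dicer LKO at 49.7% of control, with a log2 fold change of −1.01 (SE 0.17, 95% interval −1.40 to −0.62, edgeR adjusted p = 0.0428). The exact two-sided permutation test gave p = 0.1, the smallest that 3 against 3 allows. By TPM the means were 8.80 ± 2.04 and 19.2 ± 0.38. The fall kept its sign in all 14 alternatives, from −1.18 to −0.86 with a library left out. Groups that do not overlap largely fix that sign in advance. The call was close to the threshold. It was lost when any of Dicer LKO replicates 1, 2 and 3 or of control replicates 2 and 3 was left out (edgeR adjusted p as high as 0.148) and on the log2(TPM + 1) scale (0.0721). Heart muscle marker sums also separated the groups, at 0.762 to 10.7 CPM in Dicer LKO and 12.3 to 39.8 CPM in controls. Dicer LKO replicate 3, which had the most heart muscle markers of its group, was at 55.3 CPM of Stard4, between the other two. The part of heart muscle RNA in the Stard4 values was not tested. Stard4 lies at chr18:33199355-33213862 on the minus strand, and its 3′ untranslated region of 4231 bases held no match to the 6 seeds.

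Npc2 and Npc1 together carry cholesterol out of the lysosome, and neither passed the test. Npc2, the soluble partner, was at 61.7, 60.8 and 64.9 CPM in Dicer LKO against 50.9, 53.8 and 35.8 CPM in controls, with no overlap. Its means were 62.5 ± 2.11 and 46.9 ± 9.66 CPM, a log2 fold change of 0.41 (SE 0.17, edgeR adjusted p = 0.214). That value ran from 0.28 without control replicate 3, the shallowest library, to 0.55 without control replicate 2. Npc1, the membrane partner, was at 172, 110 and 200 CPM against 202, 221 and 102 CPM, a log2 fold change of −0.12 (SE 0.33). The difference between the pair was not tested.

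None of the 3 esterification genes passed the test. Soat1, known for ester storage in macrophages, was at 11.3, 11.2 and 13.5 CPM in Dicer LKO against 8.43, 10.9 and 8.54 CPM in controls, higher in every library. The log2 fold change was 0.37 (SE 0.17, edgeR adjusted p = 0.255). By TPM the Soat1 means were 1.98 ± 0.645 and 1.93 ± 0.593, so the separation did not hold on the scale corrected for length. Soat2, the hepatocyte enzyme, was at 23.8 ± 6.84 against 25.2 ± 6.90 CPM and overlapped throughout, with a log2 fold change of −0.08 (SE 0.26). Lcat was at 287, 362 and 247 CPM against 225, 262 and 160 CPM. Its lowest Dicer LKO library lay below the highest control, and the log2 fold change was 0.47 (SE 0.23, edgeR adjusted p = 0.298). Beside the higher values of Npc2, Mylip and Soat1, all 12 macrophage markers had positive fold changes (median 0.80), 6 of them higher without overlap (background 12.7%) and none called, and their sum in control replicate 2 (636 CPM) reached into the Dicer LKO range. Stellate cell, endothelial, bile duct, neutrophil and erythroid markers also summed higher in Dicer LKO livers, without overlap. The part of RNA from macrophages or any of these other cells in the values of Npc2, Mylip and Soat1 was not tested.

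**Figure D5:**
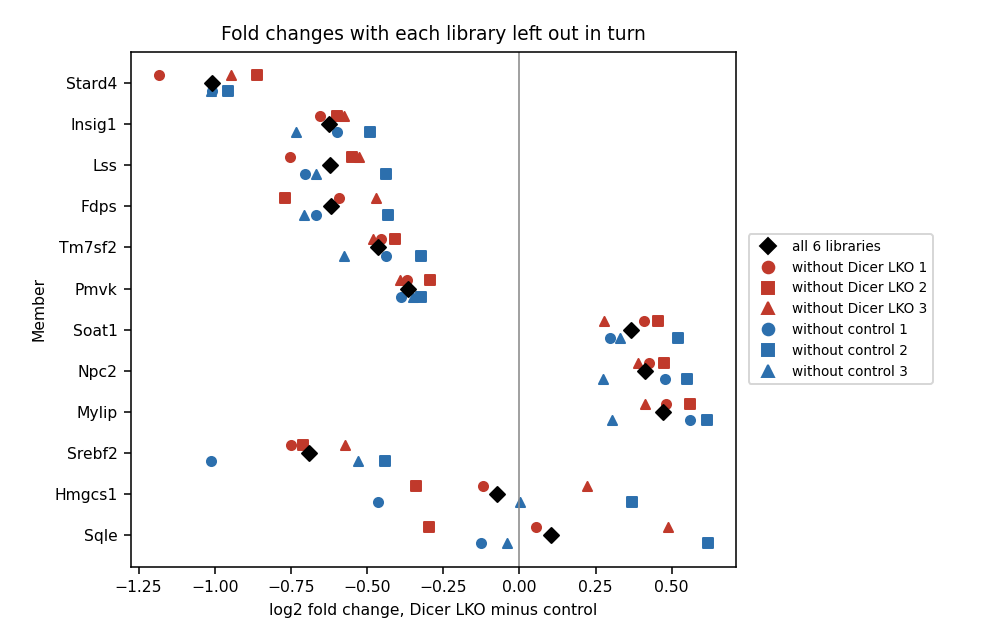
Log2 fold changes of 12 members with all 6 libraries (diamonds) and with each library left out in turn (red, a Dicer LKO library left out; blue, a control). The 9 members without overlap stay on their side of 0, which their separated groups largely fix in advance. Srebf2 moves to −1.01 without control replicate 1, and Hmgcs1 and Sqle cross 0.

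The matches to miRNA seeds fell on members of both signs. The members with a let-7 match had log2 fold changes of −0.69 (Srebf2), 0.41 (Npc2), 0.37 (Soat1) and −0.08 (Soat2). Those with a miR-148 match were at −0.13 (Idi1), −0.62 (Lss), −0.34 (Sc5d) and −0.63 (Insig1). All members with a miR-148, miR-33 or miR-223 match were negative, as were 74.2% of the 31 members. Those with a miR-33 match, Nsdhl and Soat2, stood at −0.15 and −0.08. For miR-30 the values were −0.29 (Dhcr7), 0.22 (Insig2) and 0.37 (Soat1), for miR-27 −0.34 (Sc5d), −0.12 (Npc1) and 0.41 (Npc2), and for miR-223 −0.19 (Acat2), −0.08 (Hmgcs1), −0.63 (Insig1) and −0.12 (Npc1). None of these members passed edgeR's test.

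A wider list of 47 sterol and isoprenoid genes outside the 31 was read in the same fit, and 46 were tested. None passed edgeR's adjusted threshold; at an unadjusted p under 0.05, 4 were lower (8.70%, against 12.1% of all genes) and 1 was higher (2.17%, against 8.88%). DESeq2 called 4 of them, and 1117 of the 23552 genes it fitted over the whole table. Their median log2 fold change was −0.05, with 20 positive and 26 negative values. The 8 genes of isoprenoid branches had a median of −0.09, the 6 SREBP proteases and partners 0.05, the 7 electron donors and other helpers of sterol enzymes −0.10, the 5 tested receptor helpers and related receptors 0.12 (3 without overlap, against 28.0% of all genes), the 9 genes of lysosomal and ester hydrolysis 0.18 and the 4 of lipoprotein remodelling 0.06. The 7 genes of acetyl-CoA supply and other SREBP targets had the lowest median, −0.85, all 7 being negative (against 51.4% of all genes) and 4 lower without overlap (57.1%, background 15.4%). Control replicate 1 carried much of that median, which was −0.42 without it, an alternative chosen after seeing the data, with all 7 still negative. The 5 with the lowest p were Fasn, Cyb5b, Lsr, Acly and Pcyt2. Fasn, fatty acid synthase, was at 295, 208 and 289 CPM in Dicer LKO and 1247, 482 and 685 CPM in controls (log2 fold change −1.61, SE 0.36, edgeR adjusted p = 0.0773). Cyb5b, a cytochrome b5 of the outer mitochondrial membrane, was at 244 ± 36.2 against 427 ± 69.7 CPM, and Acly, which makes cytosolic acetyl-CoA, at 155 ± 35.2 against 280 ± 88.0 CPM. Lsr, a lipoprotein receptor, was higher at 164 ± 19.8 against 108 ± 15.3 CPM, and Pcyt2, of phosphatidylethanolamine synthesis, was at 216 ± 13.9 against 291 ± 28.0 CPM. Control replicate 1, the highest library for Fasn and Acly, was the lowest control for Hmgcs1, Idi1 and Sqle, genes picked out after their values were seen.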

How the data were processed

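Liver RNA of 3 Dicer LKO and 3 control samples was compared, with groups and replicate numbers taken from genotype labels and titles. The authors deposited expected counts per gene (not normalized) and TPM values (per length and scaled to the same total) for each sample. The submitters' processing notes name CASAVA and Bowtie (no versions) and the human build hg19, while the identifiers are those of mouse genes. The column names, per the file headers, match RSEM output; annotation and strandedness were not given in the sources used here. Of the identifiers, 50376 (99.56%) matched GENCODE M21 (GRCm38), which gave the coordinates.

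The deposited expected counts were rounded (at least 96.0% were whole already). Totals were 22257541, 23436696 and 25049749 in Dicer LKO replicates 1 to 3 and 22152506, 20539847 and 14141973 in control replicates 1 to 3. No pair of libraries agreed within sampling noise. Counts of 0 allow 3 counts per library, for counting error only. Genes were filtered with filterByExpr, scaled by TMM and compared by edgeR's quasi-likelihood test (robust glmQLFit, edgeR 4.0.16, R 4.3.3), genotype the only term, with Benjamini-Hochberg adjustment over 14314 genes and calls at adjusted p under 0.05. CPM use TMM-scaled library sizes; intervals are 95% from the same fit. The steps were tested on simulated data. Alternatives used DESeq2 1.42.0, limma 3.58.1 (voom with sample weights; log2(TPM + 1), mean TPM at least 0.5), other scalings and filters, the replicate number as a block, and each library left out.

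The members, gene lists and markers were chosen with earlier results of these data known. All 31 members are named. Values in every library are given for members called or without overlap and for the most abundant member and the one with the lowest p of each role, with others added after their values were seen. Of the other pathway genes the 5 with the lowest p are named. The miR-122 family was not analysed here.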

Additional observations from a re-analysis of the deposited data

How the results depend on the processing

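The number of genes called over the whole table was the most dependent on the processing. Against 185 (106 higher, 79 lower) of 14314 genes, it was 103 (50 and 53) of 14314 with library totals. DESeq2's Wald test called 1117 (494 and 623) of 23552, and voom with sample weights 717 (221 and 496) of 14314. With no filter on low counts 422 (207 and 215) of 23659 were called, and limma on log2(TPM + 1) called 30 (20 and 10) of 12724. The number called was 23 to 389 with a library left out. The number of called members, 1 of 31 as reported, was 2 with DESeq2 and with voom (Stard4 and Insig1) and 0 on log2(TPM + 1). It was 0 to 2 with a library left out, and 2 without control replicate 1 (Stard4 and Srebf2). Called genes of the wider list, 0 as reported and with each library left out, numbered 4 with DESeq2 (Cyb5b, Acly and Fasn lower, Lsr higher), 1 with voom (Cyb5b), 1 with no filter (Fasn) and 1 in the replicate block fit (Fasn).

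The replicate numbers were not taken as pairs. Deviations of same-numbered samples correlated at 0.13, 0.07 and −0.13, and those of differently numbered samples at −0.20 to 0.15. With 3 samples per group these values cannot tell a weak pairing from none. A fit with replicate block called 245 genes (149 higher, 96 lower) and 1 member, and Hmgcs1 had a log2 fold change of 0.027. Library totals moved the median of all genes from −0.01 to −0.13 and turned Sqle to −0.037, Cyp51 to −0.034 and Ebp to −0.063. Voom turned Sqle to −0.24 and Cyp51 to −0.16, and log2(TPM + 1) turned Sqle to −0.089, Cyp51 to −0.034 and Ebp to −0.12. In all, 19 members kept their sign in all 14 alternatives and 12 did not. For the 9 members without overlap the sign was largely fixed in advance when a library was left out. With a library left out, log2 fold changes ran from −0.46 to 0.37 for Hmgcs1, −0.36 to 0.26 for Mvk, −0.38 to 0.25 for Idi1, −0.30 to 0.62 for Sqle, −0.16 to 0.53 for Cyp51, −0.47 to 0.12 for Msmo1, −0.32 to 0.24 for Nsdhl, −0.056 to 0.17 for Ebp, −0.19 to 0.98 for Insig2, −0.23 to 0.065 for Scarb1, −0.37 to 0.13 for Npc1 and −0.32 to 0.13 for Soat2. The cause was not tested. Stard4 had adjusted p-values of 0.0497 to 0.148 with a library left out. The median of the acetyl-CoA supply list was −0.99 to −0.42 with a library left out. The median of the members ran from −0.39 to −0.04 and the summed synthesis level from 77.0% to 103% of control with a library left out. With 3 libraries per group, the intervals of Insig2, Hmgcs1 and Sqle included changes of 2-fold in both directions. Those of Mvd, Msmo1 and Idi1, which also varied widely, included a 2-fold fall but not a 2-fold rise.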
